A study of Caenorhabditis elegans with 19 samples.

Results

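P granules are RNA-protein condensates that mark the germ line of the nematode Caenorhabditis elegans. They are inherited from the oocyte, segregate to the germ cell lineage of the embryo, and then sit on the outer face of germ cell nuclei, where newly exported transcripts pass through them. Their scaffold is built by the PGL proteins, the GLH helicases (relatives of Vasa) anchor them at nuclear pores, and DEPS-1 acts in their assembly. CGH-1 and CAR-1 are also found in them, and belong as well to the translational repression particles of oocytes and to processing bodies of somatic cells.

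The 8 genes pgl-1, pgl-3, glh-1, glh-2, glh-4, deps-1, cgh-1 and car-1 were chosen by name, and all 8 were found among the 21975 genes of each table. Poly(A) RNA of whole worm populations was sequenced in 19 libraries of 5 groups, and gene levels are in FPKM, fragments scaled to transcript length and library size, with no scaling between libraries stated. At L3, reached 24 h after L1 larvae were put on food, there were 4 libraries each of N2 Bristol (wild type), of WM458 carrying xol-1 (ne4472), and of EKM198 carrying xol-1 (ne4472) and sex-1 (gk829), here called the double mutant. The double mutant was also sequenced at L1, after 3 h on food (4 libraries), and as early embryos bleached from young adults (3 libraries). Both mutant strains share the xol-1 allele. In worm sex determination xol-1 acts as the master switch, and sex-1, a nuclear receptor gene on the X, represses it. Wild type and xol-1 were compared with the double mutant at L3, since columns for those genotypes at other stages belong to no sample of the series and were not used. Nothing in the labels says whether replicates were separate cultures, so p-values measure the spread between these libraries, which may be technical. Genotype cannot be told apart from strain background or developmental timing. In bulk RNA of whole animals, fewer germ cells and less RNA per germ cell cannot be told apart.

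On the WBcel235 build 5 of the genes lie on chromosome I. These are glh-1 (WBGene00001598, I:6854478-6857536, plus strand), glh-2 (WBGene00001599, I:6513928-6517507, plus), glh-4 (WBGene00001601, I:3727027-3731179, plus), deps-1 (WBGene00022034, I:506473-509056, plus) and car-1 (WBGene00012484, I:12904470-12906040, plus). The others are pgl-1 (WBGene00003992, IV:6974441-6977318, minus), pgl-3 (WBGene00003994, V:4755979-4758587, plus) and cgh-1 (WBGene00000479, III:7495320-7497832, minus). All 8 are protein-coding. pgl-1 has 3 annotated transcripts, pgl-3 and deps-1 have 2 each, and the other 5 genes have 1. The 3′ end of deps-1 overlaps Y65B4BL.7 on the opposite strand, and the small nucleolar RNA gene C07H6.10 lies inside cgh-1 on its strand.

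By their means at L3, the GLH helicase genes and deps-1 were lowest in wild type, intermediate in xol-1 and highest in the double mutant. The genes cgh-1 and car-1 differed far less. Tests were made with limma on log2(FPKM + 1) over 13502 genes, those averaging 1 FPKM or more in the 12 L3 libraries, with Benjamini-Hochberg adjustment over all of them. Fold changes on this scale understate the change of low genes. Of the 8 genes 5 passed that filter, namely glh-1, glh-4, deps-1, cgh-1 and car-1. In the double mutant against xol-1, 4 of these 5 were higher at an adjusted p under 0.05 and none was lower, where 22.9% of all genes tested were higher and 26.3% lower. In xol-1 against wild type 2 of 5 were higher and none lower, where 16% of all genes were higher and 14.7% lower. Against wild type, 5 of 5 were higher in the double mutant and none lower, where 25.2% of all genes were higher and 28.1% lower. The 3 comparisons share their libraries, so they are not independent of each other. glh-4 and deps-1 averaged under 1 FPKM over wild type and xol-1 and passed the filter through the double mutant. A count over all 8 genes comes from the fit with no filter on low FPKM. There 6 of 8 were higher in the double mutant against xol-1 (18.8% of 20381 genes), 2 of 8 in xol-1 against wild type (9.86%) and 6 of 8 in the double mutant against wild type (21%). None of the 8 was lower in any of them, where 16.9%, 9.18% and 18.8% of the genes were. All 4 double mutant values lay above all 4 xol-1 values for 5 of the 8 genes, where 17.5% of the 20381 genes did so. The same 5 genes had all 4 double mutant values above all 4 wild-type values (19.9% of genes), and none of the 8 had all 4 xol-1 values above all 4 wild-type values (10.7% of genes).

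**Figure D1:**
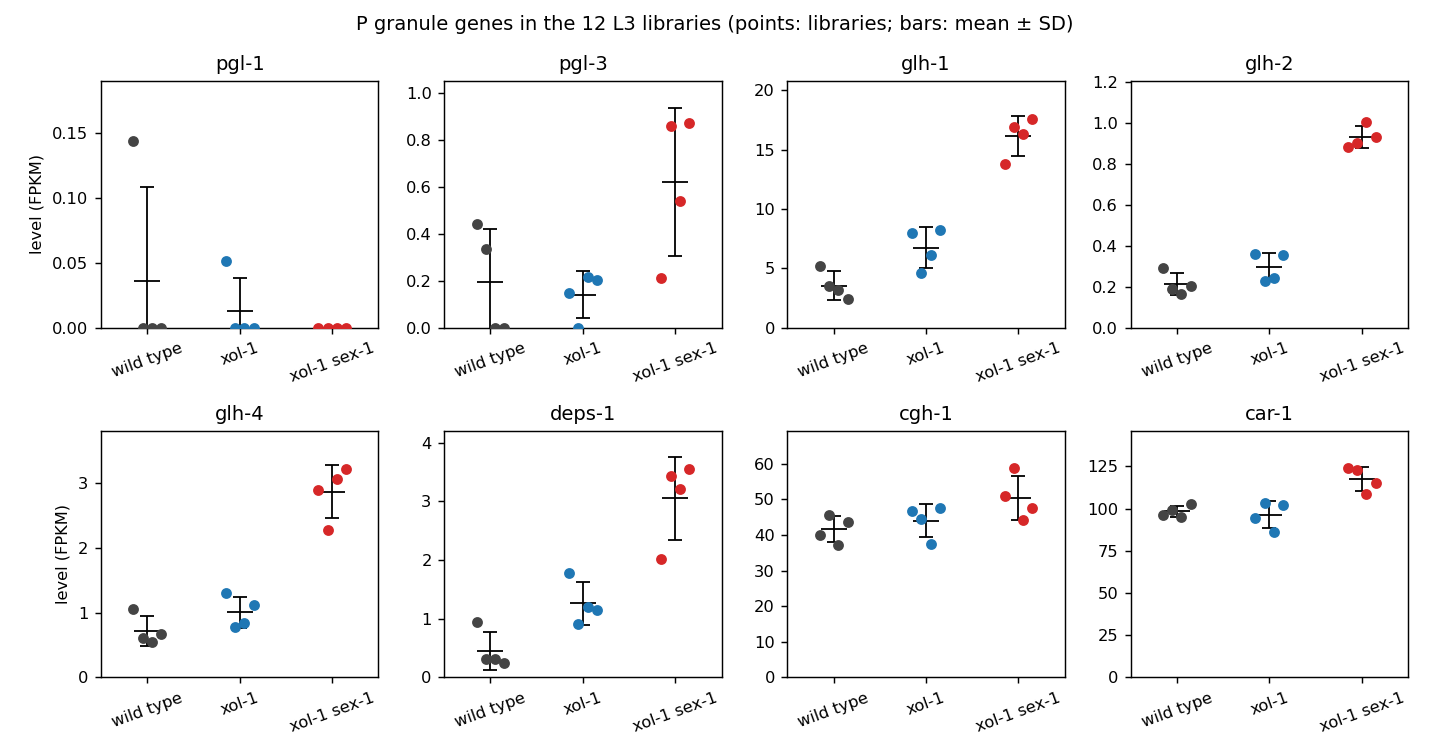
Level of each of the 8 genes in FPKM (vertical axes, from 0, a scale per gene) in the 12 L3 libraries. Points are libraries and bars are the mean ± SD of 4; the 4 xol-1 sex-1 libraries lie above all others for glh-1, glh-2, glh-4, deps-1 and car-1, overlap them for cgh-1 and pgl-3, and are listed at 0 for pgl-1.

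glh-1 encodes the main GLH helicase, a constitutive P granule protein with phenylalanine-glycine repeats like those of nuclear pore proteins. In wild-type L3 larvae its level was 5.22, 3.47, 3.15 and 2.38 FPKM in replicates 1 to 4. In xol-1 it was 8.02, 4.64, 6.12 and 8.23 FPKM, and in the double mutant 13.8, 16.9, 16.3 and 17.6 FPKM. The double mutant libraries stood apart from all others, while the highest wild-type library lay above the lowest xol-1 library. The means were 3.56 ± 1.20, 6.75 ± 1.70 and 16.2 ± 1.67 FPKM (SD, n = 4 each), so that the double mutant mean was 2.39-fold that of xol-1 and 4.54-fold that of wild type. In limma the log2 fold change was 1.17 (SE 0.19, adjusted p = 0.000311) for the double mutant against xol-1. It was 0.77 (SE 0.19, adjusted p = 0.00742) for xol-1 against wild type and 1.94 (SE 0.19, adjusted p = 4.41e-06) for the double mutant against wild type.

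glh-2, the closest relative of glh-1, was far lower at L3. It was listed at 0.290, 0.190, 0.165 and 0.205 FPKM in wild type, at 0.361, 0.230, 0.245 and 0.356 FPKM in xol-1, and at 0.885, 0.902, 1.006 and 0.933 FPKM in the double mutant. These levels correspond to about 11.6 to 28.1 fragments a library in wild type and to about 60.5 to 80.6 in the double mutant. The ranges of wild type and xol-1 overlapped, and the double mutant lay above both, with a mean 3.12-fold that of xol-1. It did not pass the filter. In the limma fit without a filter its log2 fold change was 0.57 (SE 0.06, adjusted p = 3.1e-05) for the double mutant against xol-1 and 0.098 (SE 0.06, adjusted p = 0.329) for xol-1 against wild type.

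glh-4, a further GLH helicase, was at 1.06, 0.615, 0.541 and 0.665 FPKM in wild type and at 1.3, 0.774, 0.843 and 1.11 FPKM in xol-1. In the double mutant it was at 2.91, 2.29, 3.07 and 3.22 FPKM, above every library of the other genotypes. The mean of the double mutant was 2.85-fold that of xol-1 and 3.98-fold that of wild type. The log2 fold change was 0.95 (SE 0.13, limma adjusted p = 0.000119) for the double mutant against xol-1, and 0.22 (SE 0.13, adjusted p = 0.231) for xol-1 against wild type, whose interval ran from -0.066 to 0.51. With a pseudocount of 0.1 in place of 1, glh-4 differed by 1.44 between the double mutant and xol-1 and by 1.88 between the double mutant and wild type (1.17 with a pseudocount of 1), which shows how far the pseudocount compresses levels near 1 FPKM.

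Within a library the share of each helicase in the summed FPKM of glh-1, glh-2, glh-3 and glh-4 does not depend on the scaling between libraries. It does depend on how fragments of similar sequence were divided between these paralogs, which was not examined and makes the split between glh-1 and glh-2 uncertain. glh-1 made up 57.3 to 68.9% of that sum in wild-type L3 libraries, 68.6 to 74.9% in xol-1 and 71.2 to 78.0% in the double mutant. glh-2 made up 3.39 to 4.93%, 2.91 to 3.41% and 3.97 to 4.60% in the same order. glh-1 thus held most of the GLH sum at L3 in every genotype, and its ranges in xol-1 overlapped those of both other genotypes. The share of glh-2 was higher in every double mutant library than in any xol-1 library, while its wild-type range overlapped both.

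deps-1, whose product is needed for PGL and GLH proteins to gather in granules, was at 0.939, 0.317, 0.314 and 0.249 FPKM in wild type. It was at 1.78, 0.912, 1.20 and 1.16 FPKM in xol-1 and at 2.02, 3.43, 3.21 and 3.54 FPKM in the double mutant. Replicate 1 of wild type lay within the range of xol-1, and the 3 other wild-type libraries lay below it. In limma the log2 fold change was 0.84 (SE 0.18, adjusted p = 0.00222) for the double mutant against xol-1 and 1.48 (SE 0.18, adjusted p = 2.61e-05) for the double mutant against wild type. For xol-1 against wild type it was 0.65 (SE 0.18, adjusted p = 0.0159), and without replicate 1 of xol-1 it was 0.54 with an adjusted p of 0.0517. With a pseudocount of 0.1 these 3 values were 1.21, 2.62 and 1.41.

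The PGL scaffold genes were listed under 1 FPKM in every L3 library, and pgl-3 was listed at 0 in some libraries of wild type and xol-1. pgl-3 was listed at 0.442, 0.335, 0 and 0 FPKM in wild type, at 0.147, 0, 0.216 and 0.203 in xol-1, and at 0.211, 0.861, 0.541 and 0.876 in the double mutant. Its highest library held about 51.9 fragments. In wild type the values of 0 stood beside libraries with about 30.3 and 21.1 fragments, and the source of these values of 0 was not tested. The fold changes of pgl-3 include them and are uncertain for that reason. The 3 highest values were all of the double mutant, and its remaining library lay inside the range of the other genotypes. Without the filter the limma log2 fold change was 0.49 (SE 0.16, adjusted p = 0.0284) for the double mutant against xol-1 and 0.44 (SE 0.16, adjusted p = 0.0415) for the double mutant against wild type. For xol-1 against wild type it was -0.049 (SE 0.16, adjusted p = 0.895).

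pgl-1, the founding PGL gene, was listed at 0 in 16 of the 19 libraries. The exceptions were replicate 1 of wild-type L3 at 0.144 FPKM, replicate 1 of xol-1 L3 at 0.0514 FPKM and replicate 1 of the early embryos at 0.0744 FPKM. The early embryo libraries, in which pgl-3 exceeded 87 FPKM, thus gave pgl-1 next to no fragments. A listed 0 in these tables need not be an absence of RNA. The ribosomal protein gene rpl-7 was at 0 in all early embryo and L1 libraries, where the median of 76 ribosomal protein genes was 4407 and 4524 FPKM. Among P granule partners, znfx-1 was at 0 in 16 libraries, and the Argonaute csr-1 was at 0, 0.493 and 0 FPKM in early embryos but at 12.2 to 13.9 FPKM at L1. No statement on the level of pgl-1 is therefore drawn from its values. How transcripts of 1 gene were joined into a gene value is not given in the sources used here, and it bears on pgl-1, pgl-3 and deps-1, which have more than 1 transcript.

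cgh-1, a DEAD-box helicase of the DDX6 family that represses and protects maternal mRNAs, was much more abundant at L3. It was at 40.0, 45.7, 37.3 and 43.7 FPKM in wild type, at 46.7, 44.6, 37.4 and 47.5 FPKM in xol-1, and at 51.1, 58.7, 44.2 and 47.6 FPKM in the double mutant. The 3 genotypes overlapped. The log2 fold change was 0.19 (SE 0.10, limma adjusted p = 0.133) for the double mutant against xol-1, with an interval from -0.026 to 0.403, and 0.076 (SE 0.10, adjusted p = 0.604) for xol-1 against wild type. For the double mutant against wild type it was 0.26 (SE 0.10, adjusted p = 0.0382). That call was lost without replicate 1 or replicate 3 of wild type (adjusted p = 0.0833 and 0.1103) and without replicate 1 or replicate 2 of the double mutant (adjusted p = 0.0740 and 0.117), and in the fit with no filter (adjusted p = 0.0542). Rescaling every column to a common sum gave cgh-1 a log2 difference of 0.29 for the double mutant against xol-1 (adjusted p = 0.0172), and turned xol-1 against wild type to -0.055. That rescaling moved the median of all genes by -0.12 in xol-1 against wild type, and relative to the median cgh-1 stood at 0.077 as deposited and at 0.066 after it.

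car-1, an RNA-binding protein of the LSM14 family that partners CGH-1 in germ line particles, was the most abundant of the 8 genes in every L3 library. Its levels were 96.1, 99.3, 95 and 103 FPKM in wild type, 94.2, 103, 86.2 and 102 FPKM in xol-1, and 124, 123, 108 and 114.9 FPKM in the double mutant. All double mutant values exceeded all others, by a small margin. The log2 fold change was 0.29 (SE 0.07, limma adjusted p = 0.0038) against xol-1 and 0.25 (SE 0.07, adjusted p = 0.00646) against wild type. Between xol-1 and wild type it was -0.030 (SE 0.07, adjusted p = 0.772), with an interval from -0.18 to 0.11. The ratio of car-1 to cgh-1 within a library ran from 2.17 to 2.54 in wild type, from 2.02 to 2.31 in xol-1 and from 2.10 to 2.45 in the double mutant, so the genotypes overlapped in it. The ratio of glh-1 to cgh-1 ran from 0.0546 to 0.130, from 0.104 to 0.173 and from 0.270 to 0.370 in the same order, and the double mutant did not overlap the others.

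**Figure D2:**
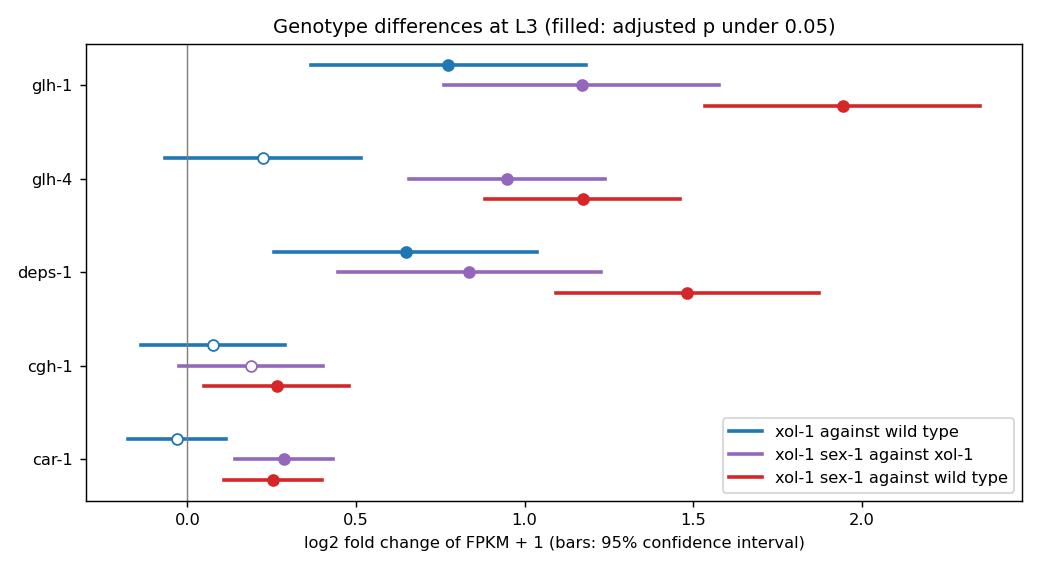
Log2 fold change of FPKM + 1 (horizontal axis) for the 5 genes that passed the filter in the 3 comparisons at L3. Bars are 95% confidence intervals of the limma fit and filled points have an adjusted p under 0.05; the values for glh-1, glh-4 and deps-1 in xol-1 sex-1 lie between 0.84 and 1.94, and those of cgh-1 and car-1 between 0.19 and 0.29.

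Libraries of 1 genotype also varied differently in the helicase genes and deps-1 than in cgh-1 and car-1. After each genotype's mean was removed, log2(FPKM + 1) of glh-1 correlated across the 12 L3 libraries at r = 0.82 with deps-1 and 0.68 with glh-4, but at 0.060 with cgh-1 and -0.26 with car-1. cgh-1 and car-1 correlated at 0.80 with each other. Some genes outside the 8 also came close to glh-1 by this measure. Among them were the germ line gene fbf-2 (0.89), the pharyngeal myosin gene myo-2 (0.84), daz-1 (0.81) and the intestinal gene ges-1 (0.66). Some other germ cell markers did not, with -0.42 for glp-1 and 0.069 for syp-2. Nor did some other somatic markers, with -0.72 for elt-2 and -0.14 for elt-7. These values describe 12 libraries in which both genes of a pair were read from the same library, and carry no test. Of all genes that passed the filter outside the 8, the nearest to cgh-1 over the 12 libraries were W02H5.2, patr-1 and hmbx-1, with Pearson r of 0.97, 0.97 and 0.96 before the means were removed. The nearest to glh-1, taken in place of pgl-1, were faah-6, ZK1193.2 and clec-8, with r of 0.995, 0.99 and 0.99. After the means were removed these 3 stood at 0.95, 0.96 and 0.97, above deps-1 and glh-4. Those nearest to cgh-1 then stood at 0.98, 0.97 and 0.96, above car-1.

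Germ cell markers outside the P granule followed the same order of genotypes in their sum. The summed level of 11 such genes was 8.54 to 11.3 FPKM in wild-type L3 libraries, 10.2 to 13.4 in xol-1 and 18.4 to 23.0 in the double mutant. Of the 11, 6 passed the filter, and 3 of these were higher in the double mutant against xol-1 and none lower, beside 22.9% and 26.3% of all genes. gld-1 passed it through the double mutant, averaging under 1 FPKM over the other genotypes. Without the filter 7 of the 11 were higher and none lower, beside 18.8% and 16.9% of 20381 genes. gld-1, a translational repressor of germ line mRNAs, rose to 3.44 ± 0.582 against 1.02 ± 0.444 FPKM (mean ± SD, n = 4; log2 fold change 1.151, limma adjusted p = 0.00013). daz-1, an RNA-binding protein of oogenesis, rose by 0.96 on the log2 scale (adjusted p = 0.000923), and glp-1, the germ line Notch receptor, by 0.30 (adjusted p = 0.0216). The level of glh-1 divided by this marker sum was 0.279 to 0.461 in wild type, 0.452 to 0.621 in xol-1 and 0.749 to 0.782 in the double mutant. deps-1 divided by the same sum overlapped between xol-1 (0.0866 to 0.138) and the double mutant (0.1096 to 0.158), and wild type lay below both (0.0291 to 0.0829). For glh-4 it was 0.0627 to 0.0938 in wild type, 0.0743 to 0.101 in xol-1 and 0.106 to 0.158 in the double mutant, which lay above the others. Single markers spanned the change of glh-1. The ratio of double mutant to xol-1 means was 2.39 for glh-1, and it was 3.36 for gld-1, 2.97 for rec-8, 2.87 for htp-3, 2.66 for fbf-1 and 2.59 for daz-1, but 1.20 for syp-2 and 0.970 for him-3. In xol-1 and the double mutant fbf-2 averaged 1.74 and 2.46 FPKM and glp-1 2.13 and 2.84 FPKM, smaller ratios than for glh-1. rec-8, htp-3 and fbf-1 did not pass the filter, nor did the markers of the 11 not named here. The part of germ cell content in the differences of the P granule genes was not tested.

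**Figure D3:**
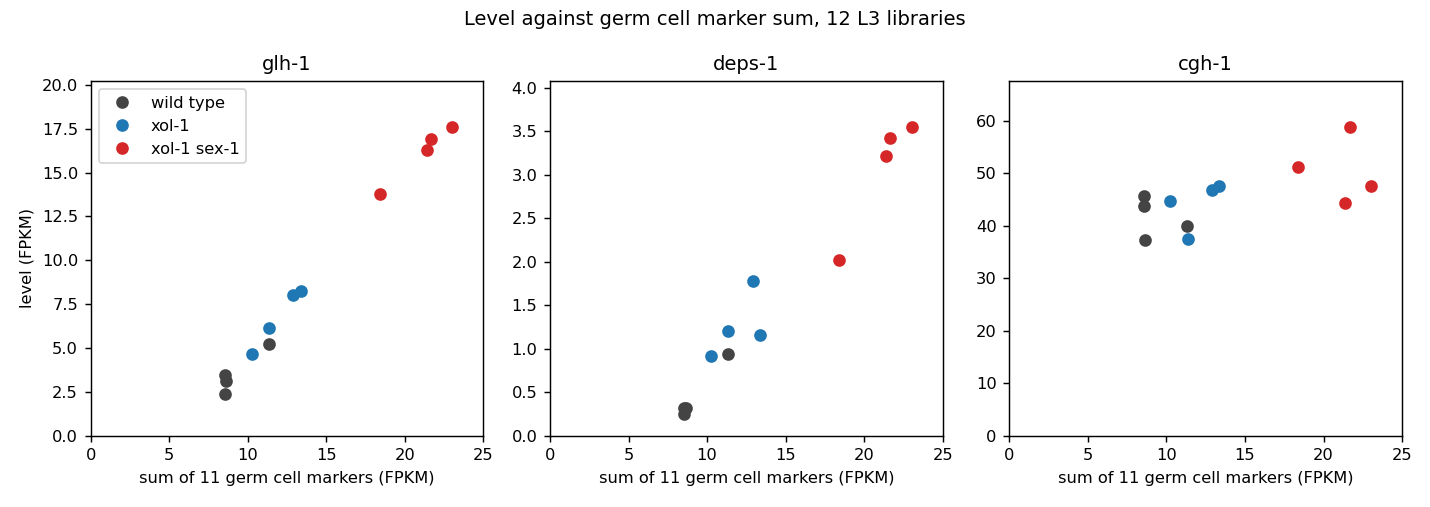
Level of glh-1, deps-1 and cgh-1 in FPKM (vertical axes) against the summed FPKM of 11 germ cell markers (horizontal axis) in the 12 L3 libraries, coloured by genotype. glh-1 and deps-1 are high where the marker sum is high, with the 4 xol-1 sex-1 libraries at sums of 18.4 to 23.0; cgh-1 spreads from 37.3 to 58.7 FPKM with the genotypes overlapping.

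Oocyte and spermatogenesis markers were low at L3. The sum of 7 oocyte markers was 1.9 to 2.32 FPKM in wild type, 2.497 to 3.48 in xol-1 and 5.50 to 7.40 in the double mutant, and 1 of them, oma-2, passed the filter. It was higher in xol-1 and in the double mutant against wild type (limma adjusted p = 0.0157 and 0.00451), with an adjusted p of 0.754 between the mutants. Without the filter 5 of the 7 were higher in the double mutant against xol-1 (18.8% of all genes) and none lower. The sum of 7 spermatogenesis markers was 2.33 to 3.55, 0.839 to 2.05 and 2.32 to 3.37 FPKM, with fog-1, gsp-3 and gsp-4 listed at 0 in all 12 libraries. Its 1 gene past the filter was fog-3, which averaged under 1 FPKM over wild type and xol-1 and passed through the double mutant. It had a limma adjusted p of 0.144 in the double mutant against xol-1. Against wild type it was higher in the double mutant (log2 fold change 0.63, adjusted p = 0.0205). In the fit with no filter 4 of these markers were tested for the double mutant against wild type. Of them 2 were higher and 2 lower, where 21% and 18.8% of 20381 genes were. Somatic markers differed as well. Against xol-1, the double mutant had 7 of the 10 higher and 1 lower (22.9% and 26.3% of all genes). The higher ones were led by the pharyngeal myosin gene myo-2 (log2 fold change 2.35, limma adjusted p = 0.00535). Next came ges-1, an intestinal esterase (0.83), and the body wall muscle myosin genes myo-3 (0.82) and unc-54 (0.80). The lower one was rab-3 (-0.50, adjusted p = 0.000751). Against wild type 7 of the 10 were higher in the double mutant and 3 lower, beside 25.2% and 28.1% of all genes. The 3 were dpy-7 (-0.47), rab-3 (-0.38) and lin-26 (-0.34). myo-2 was at 13.6, 2.23, 2.17 and 1.94 FPKM in wild type, at 16.1, 5.06, 3.24 and 11.9 FPKM in xol-1 and at 36.5 to 47.2 FPKM in the double mutant. Replicate 1 of wild type and replicates 1 and 4 of xol-1 were the highest of their groups for both myo-2 and glh-1. In the double mutant myo-2 was at 627 to 735 FPKM at L1, and whether the L3 populations differed in developmental age was not tested.

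Other proteins of germ granules were read from a list of 20 genes, of which 13 passed the filter. In the double mutant against xol-1 5 were higher and none lower (22.9% and 26.3% of all genes), with a median log2 fold change of 0.28 beside -0.018 over all genes. wago-1, an Argonaute that binds secondary small RNAs, rose to 7.82 ± 0.314 against 3.80 ± 0.785 FPKM (mean ± SD, n = 4; log2 fold change 0.89, limma adjusted p = 6.15e-05). prg-1, the Piwi protein of P granules, rose from 7.73 ± 1.53 to 12.4 ± 0.605 FPKM (0.64, adjusted p = 0.00129). lotr-1, a LOTUS and Tudor domain protein, rose by 0.57 (adjusted p = 0.00116), glh-3, the fourth GLH helicase, by 0.28 (adjusted p = 0.0253), and ego-1, an RNA-dependent RNA polymerase, by 0.27 (adjusted p = 0.0463). pgl-2 was at 1.51 ± 0.520 FPKM in xol-1 and 1.55 ± 0.351 in the double mutant (adjusted p = 0.878). csr-1 was at 4.63 ± 1.16 and 5.93 ± 1.46 FPKM (adjusted p = 0.216). meg-3, a scaffold of embryonic P granules, was at 1.60 ± 0.275 and 1.83 ± 0.218 FPKM (adjusted p = 0.361), and meg-4 did not exceed 0.151 FPKM in any L3 library. In xol-1 against wild type 3 of the 13 were higher, mip-1, lotr-1 and prg-1, beside 16% of all genes, and in the double mutant against wild type 8 were, beside 25.2%, with none lower in either.

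Of 15 listed partners of CGH-1 and CAR-1 in repression and decay particles, 14 were matched and 13 passed the filter. In the double mutant against xol-1 4 were higher and 2 lower, where 22.9% of all genes were higher and 26.3% lower, so the list lay near the background there. In xol-1 against wild type 2 were higher and none lower, beside 16% and 14.7%. In the double mutant against wild type 7 of the 13 were higher and none lower, beside 25.2% and 28.1%. Without the filter that comparison had 6 of 14 higher and none lower, beside 21% and 18.8% of 20381 genes. cey-2, a Y-box protein of germ line particles, rose to 8.27 ± 1.54 against 4.97 ± 0.735 FPKM (mean ± SD, n = 4; log2 fold change 0.63, limma adjusted p = 0.00648). The exonuclease gene xrn-1 rose by 0.55 (adjusted p = 0.0002), the Y-box gene cey-4 by 0.43 (adjusted p = 0.000692) and the decapping cofactor gene dcap-1 by 0.36 (adjusted p = 0.0035). lsm-1 and lsm-3, subunits of the decay-linked LSM ring, fell by 0.43 and 0.28 (adjusted p = 0.000211 and 0.00579). Against wild type neither was called in the double mutant (adjusted p = 0.0551 and 0.112), and lsm-1 was higher in xol-1 (0.27, adjusted p = 0.00738).

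Genes that clear PGL granules from somatic cells by autophagy, 8 in the list and 7 past the filter, split 4 higher and 2 lower in the same comparison, beside 22.9% and 26.3% of all genes. Without the filter the split was 5 and 1 of 8. epg-3 rose by 0.69 (limma adjusted p = 0.000165), bec-1 by 0.63 (adjusted p = 7.5e-05) and atg-18 by 0.38 (adjusted p = 0.0058), all of them general autophagy genes. The arginine methyltransferase gene prmt-1 was 0.20 lower (adjusted p = 0.0482). Against wild type, however, prmt-1 was higher in xol-1 (0.68, adjusted p = 4.18e-05) and in the double mutant (0.49, adjusted p = 0.000197). bec-1 was lower than wild type in xol-1 (-0.27, adjusted p = 0.0277) and higher in the double mutant (0.36, adjusted p = 0.00289). epg-3 was higher in the double mutant (0.79, adjusted p = 4.12e-05), and atg-18 was not called there (adjusted p = 0.229). sepa-1, the receptor of PGL granules, was not above 0.109 FPKM in any L3 library. Of 9 chromatin regulators that hold P granule genes silent in soma or active in germ line, 8 passed the filter and 4 were higher, none lower, beside the same 22.9% and 26.3%. They were mes-4 (0.47, adjusted p = 0.000662), lin-13 (0.46, adjusted p = 0.000316), let-418 (0.33, adjusted p = 0.00245) and met-2 (0.21, adjusted p = 0.00353).

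Across stages of the double mutant, 7 of the 8 genes were highest in early embryos. The stages are separate tables that may have been scaled separately, so the levels are set side by side without a test, and stage cannot be told apart from table. The share of all genes that were highest in early embryos is not given here. glh-1 was at 220, 214 and 158 FPKM in early embryos, 28.0, 26.6, 26.7 and 27.6 FPKM at L1, and at the L3 values above. deps-1 was at 168, 162 and 137 FPKM in early embryos and at 9.55, 9.15, 9.45 and 10.2 FPKM at L1. pgl-3 was at 117, 111 and 87.7 FPKM in early embryos and at 0.973, 0.798, 1.91 and 1.36 FPKM at L1, the steepest step of the 7, at 83.6-fold between the means. No early embryo library overlapped a larval one for any of these genes.

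glh-2 was at 92.5, 88.6 and 67.7 FPKM in early embryos and at 3.71, 4.81, 4.05 and 4.69 FPKM at L1, 19.2-fold apart in the means. glh-4 was at 52.3, 51.2 and 38.5 FPKM and at 7.01, 5.89, 6.92 and 6.996 FPKM, 7.06-fold apart. The share of glh-2 in the GLH sum, which no scaling touches, was 23.1 to 23.5% in early embryos, 8.89 to 11.95% at L1 and 3.97 to 4.60% at L3, while that of glh-1 was 54.8 to 55.9%, 64.5 to 67.0% and 71.2 to 78.0%. The helicases therefore kept the order glh-1, glh-2, glh-4 in early embryos, and glh-4 stood above glh-2 in the larval libraries.

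cgh-1 and car-1 were among the most abundant transcripts of the early embryo, at 861, 835 and 697 FPKM and at 1034, 1003 and 851 FPKM. These levels were at percentiles 98.7 to 98.9 and 99.0 to 99.1 of all genes in a library. At L1 cgh-1 was at 58.2, 59.7, 63.3 and 71.9 FPKM and car-1 at 135, 136, 133 and 145 FPKM. As deposited, their L1 means were 1.26-fold and 1.17-fold those of L3, against 1.69-fold for glh-1, 2.34-fold for glh-4, 3.14-fold for deps-1 and 4.63-fold for glh-2. For 5 of the 8 genes every early embryo value exceeded every L1 value and every L1 value every L3 value. These were glh-1, glh-2, glh-4, deps-1 and car-1, while cgh-1 overlapped at 58.2 and 58.7 FPKM and pgl-3 at 0.798 and 0.876 FPKM. The share of all genes with that order is not given here, so the count is not read as a trait of these genes. The car-1 to cgh-1 ratio was 1.20 to 1.22 in early embryos and 2.01 to 2.32 at L1.

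**Figure D4:**
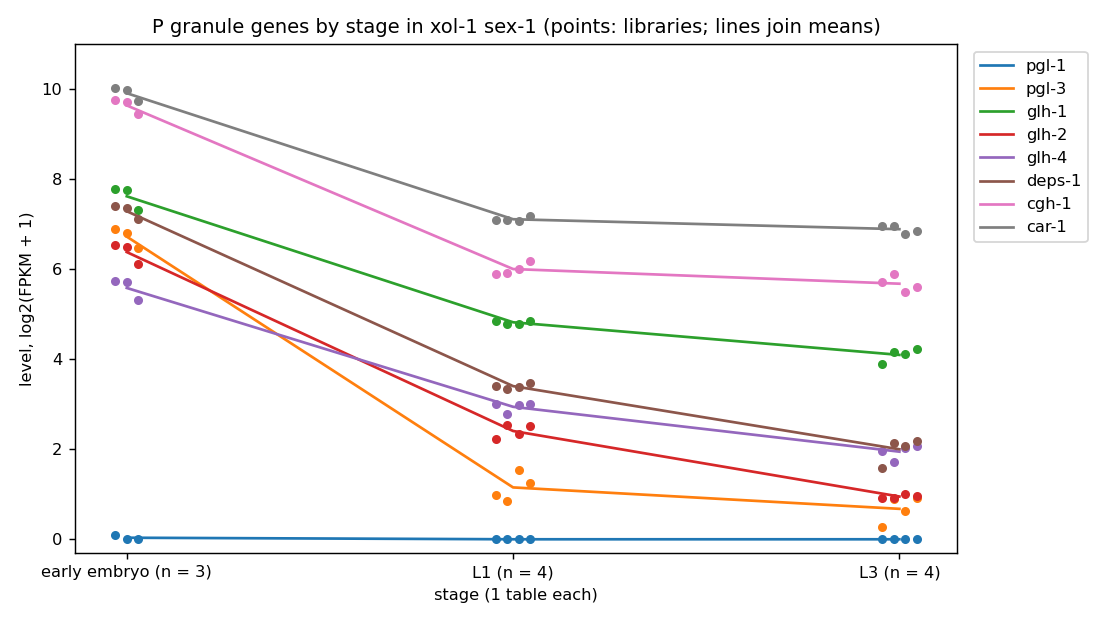
Level of each gene as log2(FPKM + 1) (vertical axis) in the 11 xol-1 sex-1 libraries at 3 stages (horizontal axis, each stage a separate table). Points are libraries and lines join means; 7 genes are highest in early embryos and lower at L1 and L3, and pgl-1 is at or near 0 throughout.

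Early embryo RNA was also high in germ cell and oocyte markers, whose sums were 908 to 1145 and 4157 to 5268 FPKM, against 32.9 to 34.8 and 20.2 to 23.1 FPKM at L1. Set against the germ cell marker sum, glh-1 was 0.174 to 0.197 in early embryos, 0.800 to 0.830 at L1 and 0.749 to 0.782 at L3. meg-3 and meg-4 were at 42.9 ± 2.64 and 22.1 ± 2.70 FPKM in early embryos (SD, n = 3) and at 1.12 ± 0.273 and 0.355 ± 0.161 FPKM at L1 (n = 4). prg-1 was at 156 ± 19.3 FPKM in early embryos and 14.9 ± 1.06 FPKM at L1.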

How the data were processed

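The authors deposited 3 tables of FPKM values, 1 per stage, per the file headers with samples in columns. The submitters' processing notes name cutadapt 2.3, FastQC 0.11.8, Salmon 1.9.0, DESeq2 1.42.0 and the build WBcel235, with no role or order. The annotation and the scaling between samples are not given in the sources used here. Columns were matched to samples by name, and 13 columns of no sample were not used. Symbols and positions came from the Ensembl 115 annotation of WBcel235, which held all 21975 identifiers. FPKM values are not counts, so limma 3.58.1 (R 4.3.3, statmod 1.5.0; eBayes with trend and robust) was fitted to log2(FPKM + 1) of the 12 L3 libraries, over the 13502 averaging 1 FPKM or more. Tests were two-sided with Benjamini-Hochberg adjustment and a threshold of 0.05. The fit was tested on simulated data. Other steps used Python 3.11.15, pandas 2.3.3, numpy 2.4.6 and matplotlib 3.10.9.

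L3 columns summed to 1490760 to 1717680 FPKM, and no 2 were identical. The spacing of the lowest values of genes with 1 transcript of at least 1000 bases gave the relative depth, at 20.9 to 35.0 fragments per FPKM and kilobase at L3, 14.2 to 19.8 at L1 and 28.0 to 35.3 in early embryos. Fragment numbers use the longest transcript and are approximate. Salmon-type values are not whole fragments, so no count test was run.

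The 8 genes and the 8 lists beside them were chosen with earlier results of these data known. Named from each list were up to 4 genes with the largest change among those called in the double mutant (xol-1 sex-1) against xol-1, plus pgl-2, glh-3, meg-3, meg-4, prg-1 and csr-1. rpl-7, znfx-1, ego-1, mip-1, dcap-1, lsm-3, sepa-1, oma-2, fog-3, fbf-1, fbf-2, rec-8, htp-3, syp-2, him-3, elt-2, elt-7, rab-3, dpy-7 and lin-26 were named after their values were seen, and so was glh-1 in place of pgl-1 for likeness. ntl-1 was not matched. Same-numbered L3 libraries deviated together at over 0.1 in 2 of 12 pairs, so the numbers were not taken to pair libraries.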

Additional observations from a re-analysis of the deposited data

Results flagged for a closer look

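In 4 of the 30 groups of 4 libraries looked at, 1 library of a P granule gene lay far from the other 3, with a gap to the nearest, as a share of the group's range, above Dixon's 95% critical value. Chance gives about 1 in 20 such groups. deps-1 was high in replicate 1 of wild-type L3 (0.939 FPKM against 0.249 to 0.317; gap 0.902 of the range). pgl-1 was above 0 in replicate 1 of wild-type L3 and in replicate 1 of xol-1 L3, with 0 in the other 3 libraries of each group (gap 1.0 of the range in both). With 3 values of 0 that gap is fixed by construction, so both say nothing of how far the library lies from the others. Among the other 28 groups 2 stood out. glh-4 was low in replicate 2 of the double mutant at L1 (5.89 FPKM against 6.92 to 7.01; gap 0.925). Replicate 1 of wild type was also the highest wild-type library for glh-1, glh-2, glh-4, pgl-3 and myo-2; the cause was not tested.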

How the results depend on the processing

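The number of the 8 genes called at L3 was 4, 2 and 5 for the double mutant against xol-1, xol-1 against wild type and the double mutant against wild type. Of all 13502 genes tested, 49.2%, 30.7% and 53.3% were called, in either direction. A filter at a mean of 5 FPKM left 3 genes tested and gave 2, 1 and 3, where 54.4%, 36.8% and 58.2% of 10435 genes were called. Counts over 3 genes are too small to set apart from that share. An added 1.5-fold threshold gave 3 for the double mutant against wild type, where 2481 of 13502 genes passed. It also removed car-1 (log2 fold change 0.29) from the genes called in the double mutant against xol-1. Leaving out 1 replicate at a time gave 4 to 4, 1 to 2 and 4 to 5. In those fits 42.47 to 49.39%, 24.17 to 33.85% and 47.56 to 54.7% of all genes were called. glh-1 was called in all 21 alternatives in each comparison, and deps-1 in all 20 except the one named in the report. 2 values turned sign, both uncalled: cgh-1 in xol-1 against wild type (-0.055 after rescaling to a common sum) and car-1 in the same comparison (-0.064 to 0.022 with 1 replicate left out, the latter without replicate 3 of xol-1). In the fit with a replicate block the counts were 5, 2 and 5, where 48.4%, 29.65% and 52.4% of all genes were called. The added gene was cgh-1 in the double mutant against xol-1 (limma adjusted p = 0.0435). A library's deviations were closest to its own number in 5 of 24 cases. The order of stages held for 5 genes as deposited, 7 after either rescaling, and 5 to 6 with 1 library left out. No share of all genes is given beside these counts, and stage cannot be told apart from table. They are therefore not read as a trait of the 8 genes. Rescaling moved the log2 ratio of L1 over L3 to 1.11 and 1.22 for glh-1, 0.68 and 0.79 for cgh-1, and 0.57 and 0.68 for car-1. Few fragments limit glh-2 at L3, few fragments and values of 0 limit pgl-3 at L3, and the values of 0 limit pgl-1 at every stage.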
